A study of Homo sapiens with 8 samples.

Results

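The regions described here are the EZH2 peaks of human chromosome 20 in 2 myeloma lines made from KMS11 cells, taken as every peak of the 4 deposited peak lists that lies on chromosome 20 of hg18. There were 1316 such peaks among 19721 in all: NTKO cells gave 278 of 2972 (run 1) and 582 of 10582 (run 2), and TKO cells gave 53 of 651 (run 1) and 403 of 5516 (run 2). KMS11 is a multiple myeloma line with the t(4;14) translocation, which places MMSET (NSD2) under immunoglobulin heavy chain control. In NTKO cells the wild-type MMSET allele was inactivated and the rearranged allele remains, so MMSET is high. In TKO cells the rearranged allele was inactivated by homologous recombination and a wild-type copy remains, so MMSET is low. Both lines therefore carry a targeted allele, and each is an engineered derivative of 1 cell line. All cells were grown in RPMI1640 with 10% fetal bovine serum and antibiotics and used at passage 15 to 20. EZH2-bound chromatin was recovered with an anti-EZH2 antibody and sequenced in 2 samples per line, run 1 and run 2 in the labels. The 4 matching input samples entered only through the authors' peak calls.

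EZH2 is the enzyme of Polycomb repressive complex 2 that methylates lysine 27 of histone H3, a mark of silenced genes, and it often covers developmental genes and clusters of CpG islands over long stretches. MMSET methylates lysine 36 of the same histone, a mark that hinders EZH2's activity on the same tail. Gene annotation of hg18 was not used here, so no gene is assigned to a peak and no sequence is shown. As background only, RefSeq's order of genes on GRCh38 ends the long arm with the cadherin gene CDH4, the laminin gene LAMA5, the transcription factor gene GATA5, the neurotensin receptor gene NTSR1 and the collagen gene COL9A3. They are followed by the acetylcholine receptor gene CHRNA4, the elongation factor gene EEF1A2, and the transcription factor genes SOX18 and MYT1. Whether any peak lies at these genes was not tested.

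Chromosome 20 was chosen by a measured value: among the chromosomes it had a low share of TKO run 2 peaks without an NTKO run 2 peak, 6.20%. That share, its reverse and the ratio of peak numbers are given as descriptions, with no test. A height is the number of reads over the summit of a peak, with no stated scaling to library size, and the depth of the libraries is unknown. The lists grew with the run: run 2 had 3.56 times the peaks of run 1 in NTKO cells and 8.47 times in TKO cells over the whole genome, and 2.09 and 7.60 times on chromosome 20. The part of depth in the differences between lists was not tested.

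The peaks of chromosome 20 sat at the far end of the long arm. The chromosome was divided into windows of 0.5 Mb by peak midpoint, 125 windows up to the last peak, of which 40 held a peak in any list and 85 held none. The 6 windows with the most run 2 peaks were selected on those numbers, and they turned out to be neighbours, from 59500001 to 62500000. They are 4.8% of the windows and held 258 of the 278 peaks of NTKO run 1 (92.8%) and 515 of the 582 of run 2 (88.5%). For TKO cells they held 43 of the 53 peaks of run 1 (81.1%) and 371 of the 403 of run 2 (92.1%). Just inside this choice, the sparsest of the 6 windows had 24 run 2 peaks of both lines together, and just outside it the fullest window had 13. The concentration was present in each of the 4 samples, run 1 included, which did not enter the choice of windows.

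**Figure D1:**
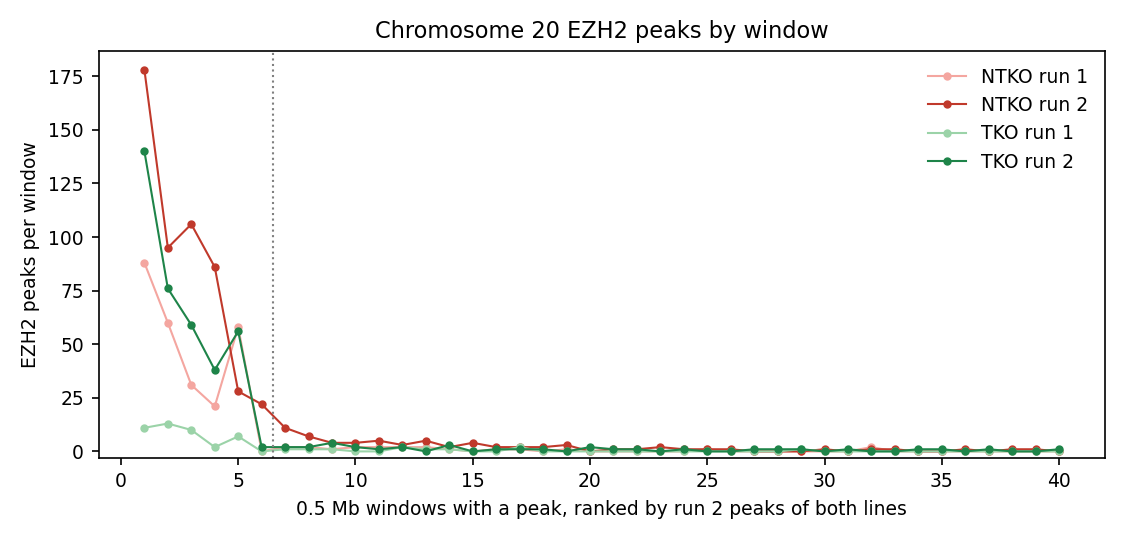
Number of EZH2 peaks (vertical axis) in each of the 40 windows of 0.5 Mb that held a peak, ranked by the run 2 peaks of both lines (horizontal axis), with 1 line of points per sample. The dotted line marks the 6 densest windows; outside them no window held more than 13 run 2 peaks of both lines together.

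Within the 6 windows the numbers differed by window, line and run. From 59500001 to 60000000 NTKO run 2 had 22 peaks and TKO run 2 had 2, and neither run 1 list had a peak. From 60000001 to 60500000 NTKO cells had 58 peaks in run 1 and 28 in run 2, while TKO cells had 7 and 56. It was the only one of the 6 windows in which a TKO run 2 number exceeded that of NTKO run 2. The lengths told another order there, since the 28 NTKO run 2 peaks covered 90.3 kb and the 56 TKO run 2 peaks covered 56.1 kb. The 58 NTKO run 1 peaks covered 40.4 kb and the 7 TKO run 1 peaks 2.08 kb. In this window NTKO run 2 thus had fewer and wider peaks than TKO run 2.

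The next windows held the bulk of the peaks. From 60500001 to 61000000 NTKO cells had 60 peaks in run 1 and 95 in run 2, and TKO cells had 13 and 76. The fullest window, from 61000001 to 61500000, had 88, 178, 11 and 140 peaks in the same order, and the run 2 peaks covered 228.6 kb in NTKO and 122.4 kb in TKO cells. From 61500001 to 62000000 the numbers were 31, 106, 10 and 59. From 62000001 to 62500000 they were 21, 86, 2 and 38. In these 4 windows NTKO had more peaks than TKO in both runs.

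Across the 6 windows NTKO peaks covered 196.5 kb (run 1) and 636.8 kb (run 2), and TKO peaks 16.7 kb (run 1) and 360.5 kb (run 2). That is 6.80%, 22.1%, 0.579% and 12.5% of the DNA from the start of the 6 windows to the end of the last peak at 62388172. NTKO covered more than TKO in each run, but NTKO run 1 covered less than TKO run 2, so the lines overlapped. In steps of 0.1 Mb the densest stretch of NTKO run 2 lay between 60400001 and 60500000, with 33.1% and 72.5% covered in NTKO runs 1 and 2 and 2.08% and 50.9% in TKO runs 1 and 2. The densest step of TKO run 2 was another, between 61500001 and 61600000, with 54.1% covered, where NTKO run 2 had 65.5%. The profile was broken by steps with no or almost no peak. From 60000001 to 60200000, for example, no list had a peak, and from 60900001 to 61000000 only NTKO run 2 had any, 5 peaks over 1.25% of the DNA. The run 2 profiles of the lines rose and fell broadly in the same steps.

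**Figure D2:**
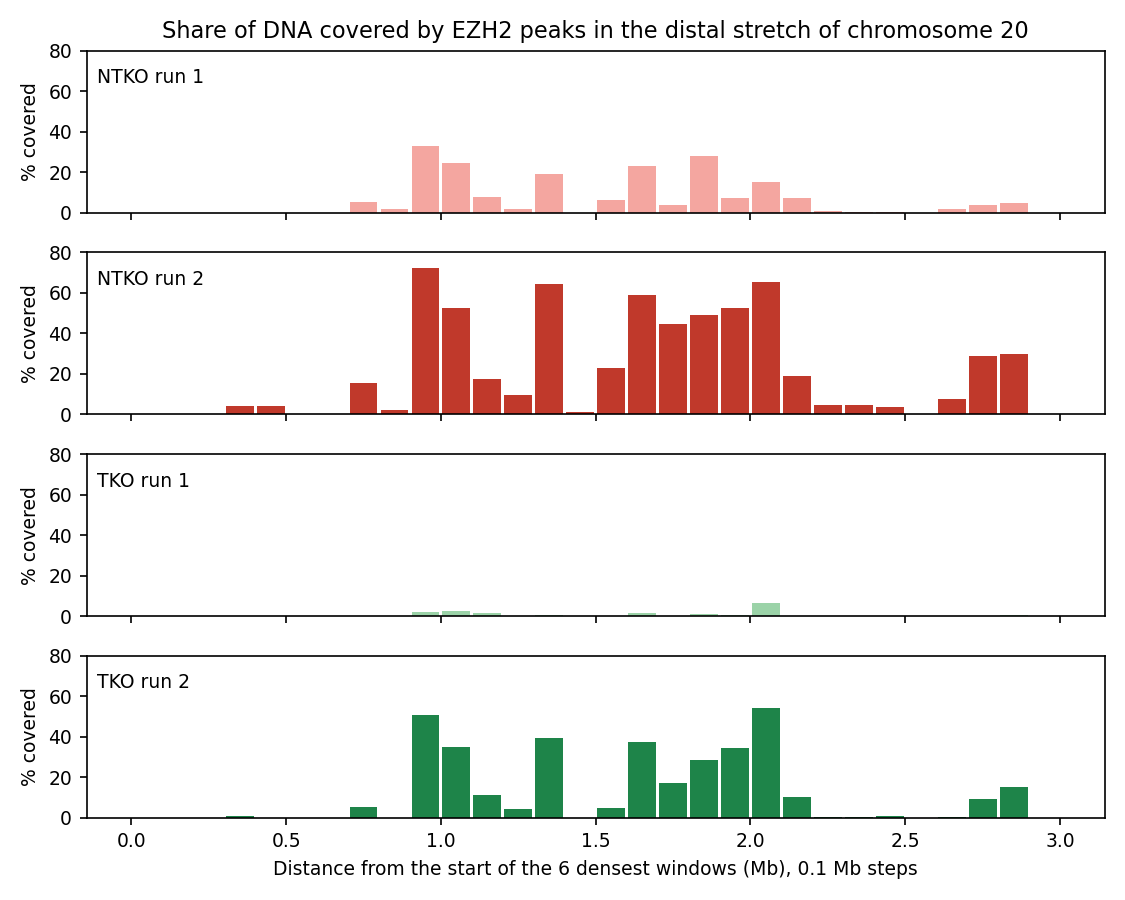
Share of the DNA covered by EZH2 peaks (vertical axis, percent) in steps of 0.1 Mb along the 6 densest windows (horizontal axis, distance from their start in Mb), 1 panel per sample. In run 2 the step at 0.95 Mb reached 72.5% for NTKO, the highest of its panel, and 50.9% for TKO cells. TKO run 2 was highest at 2.05 Mb, with 54.1%. Coverage was low in TKO run 1 throughout.

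Peaks in the distal stretch lay close together. The median gap to the next peak was 1003 bp and 482 bp in NTKO runs 1 and 2, and 7296 bp and 573.5 bp in TKO runs 1 and 2. Outside the 6 windows the median gap was 40312 bp in NTKO run 2 and 745594 bp in TKO run 2. When peaks less than 1 kb apart were joined, the whole chromosome gave 149 stretches (NTKO run 1), 198 (NTKO run 2), 38 (TKO run 1) and 164 (TKO run 2). Joined stretches over 10 kb numbered 3, 22, 0 and 9 in that order, and every one of them lay in the 6 windows. The longest ran from 60421108 to 60502382 in NTKO run 2, 81275 bp made of 19 peaks, and from 60440772 to 60470773 in TKO run 2, 30002 bp also made of 19 peaks. In both lines the longest domain of run 2 therefore fell in the same part of the chromosome, and it was longer in NTKO cells.

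The rest of the chromosome was sparse. It held 20 peaks (NTKO run 1), 67 (NTKO run 2), 10 (TKO run 1) and 32 (TKO run 2), spread over 34 windows. Before 26 Mb, which covers nearly all of the short arm, the 4 lists had 3, 8, 1 and 7 peaks. The longest stretch with no peak in any list ran for 12.2 Mb, from 5840333 to 18066501, and the next for 6.13 Mb, from 48509400 to 54638292. Of the 40 windows with a peak, 25 had more NTKO than TKO run 2 peaks, 4 had equal numbers and 11 had more TKO than NTKO run 2 peaks. Of those 11, 10 lay outside the 6 densest windows. In 8 of the 10 TKO run 2 had a single peak and NTKO run 2 none. They start at 1000001, 5500001, 20000001, 25500001, 31000001, 36000001, 44500001 and 58000001. The other two start at 47500001, with 3 TKO and 2 NTKO run 2 peaks, and at 55500001, with 2 and 0.

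The low share of TKO run 2 peaks without an NTKO run 2 peak came from the distal stretch. An overlap of 1 bp or more counted as sharing. In the 6 windows 8 of 371 TKO run 2 peaks had no NTKO run 2 peak (2.16%, 95% Wilson interval 1.10 to 4.20), while in the rest of the chromosome 17 of 32 had none (53.1%, 36.4 to 69.1). On the other chromosomes 1280 of 5113 had none (95% Wilson interval 23.9 to 26.2%). Since the chromosome and the windows were selected on run 2, these run 2 values are a description and no test. Run 1, which did not enter the choice of the chromosome, gave 1 of 43 TKO peaks without an NTKO peak in the 6 windows (2.33%, 0.412 to 12.1), 2 of 10 in the rest (20%) and 112 of 598 on the other chromosomes (18.7%, 15.8 to 22.1). The interval of the 10 run 1 peaks in the rest is wide and holds the value of the other chromosomes. These intervals cover counting error only and treat neighbouring peaks as independent, which they are not. The chance of an overlap grows with the DNA that the other list covers. For NTKO run 2 that was 22.1% of the 6 windows up to the last peak, and its part in these shares was not tested. The other chromosomes, pooled above, varied. In run 2 their shares ran from 8.6% (chromosome 16) to 66.7% (chromosome Y), with 10.2% on chromosome 19 and 12.3% on chromosome 11. In run 1 they ran from 0% (chromosome 15) to 50% (chromosome 5). Chromosomes 19, 9 and 16 had 4.17%, 6.25% and 6.52% in run 1, and the whole of chromosome 20 had 5.66%.

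**Figure D3:**
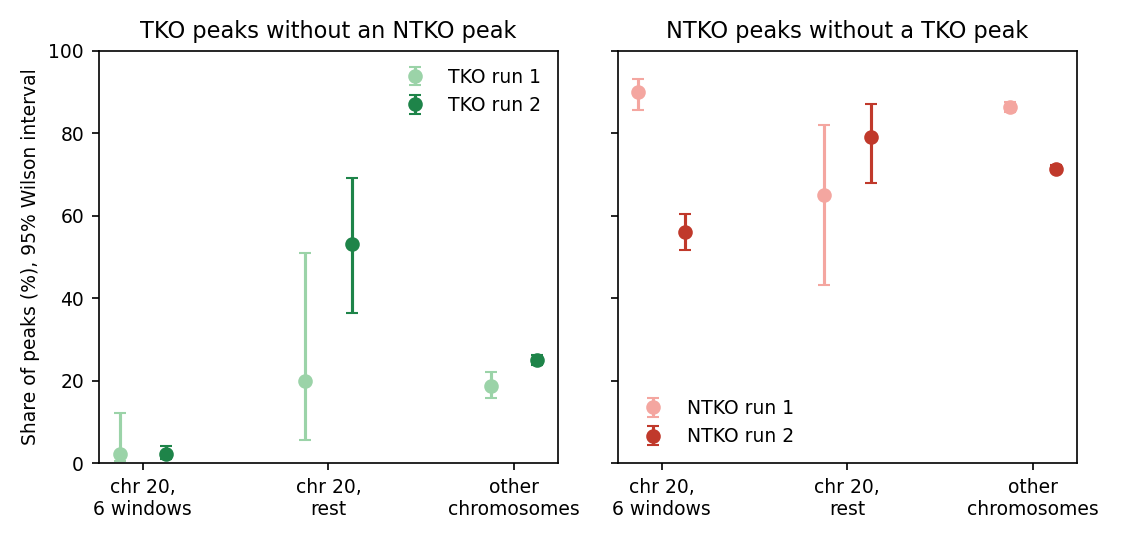
Share of peaks (vertical axis, percent) of TKO cells without an NTKO peak (left) and of NTKO cells without a TKO peak (right), each within its run, in the 6 densest windows of chromosome 20, the rest of it and all other chromosomes. Points are shares and bars 95% Wilson intervals; TKO run 2 went from 2.16% in the 6 windows to 53.1% in the rest.

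The reverse share was high everywhere. In the 6 windows 289 of 515 NTKO run 2 peaks had no TKO run 2 peak (56.1%), against 53 of 67 in the rest (79.1%) and 7144 of 10000 on the other chromosomes (71.4%). In run 1 it was 232 of 258 (89.9%), 13 of 20 (65.0%) and 2329 of 2694 (86.5%). By length, TKO run 2 peaks of the 6 windows lay almost wholly inside NTKO run 2 peaks (352.9 of their 360.5 kb, 97.9%), while the same 352.9 kb were 55.4% of the NTKO run 2 length. A single NTKO run 2 peak often spanned several TKO run 2 peaks: 81 of the 515 overlapped 2 or more, up to 9, whereas 7 of the 371 TKO run 2 peaks overlapped 2 or more NTKO run 2 peaks. NTKO run 2 peaks with no TKO partner were lower and narrower, with medians of 62 reads and 307 bp where those with a partner had 104.5 reads and 1392 bp.

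Between the runs of 1 line the same stretch was recovered. In the 6 windows 255 of 258 NTKO run 1 peaks (98.8%) had an NTKO run 2 peak, against 93.9% on the other chromosomes, and 43 of 43 TKO run 1 peaks had a TKO run 2 peak, against 82.3%. The same 43 TKO run 1 peaks all overlapped an NTKO run 2 peak as well, and 42 of them an NTKO run 1 peak. Nearly all run 1 calls therefore recurred in run 2. Of the run 2 calls fewer recurred in run 1, 138 of 515 in NTKO cells (26.8%, against 18.5% elsewhere) and 28 of 371 in TKO cells (7.55%, against 7.51%).

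Where peaks of the lines were paired, each being the other's largest overlap, the NTKO peak was mostly taller and wider. Over the 233 pairs of run 2 on chromosome 20 the mean height was 112.4 ± 41.8 reads (SD over peaks) in NTKO and 93.4 ± 35.4 in TKO cells. The median log2 ratio of height was 0.22 (quartiles 0.10 and 0.46), and the NTKO peak was taller in 197 pairs (84.5%). The median width was 1383 bp in NTKO and 682 bp in TKO cells, a median log2 ratio of 0.90 (quartiles 0.25 and 1.57), with the NTKO peak wider in 209 pairs (89.7%). On the other chromosomes the run 2 medians were 0.26 for height and 0.82 for width over 2752 pairs, with the NTKO peak taller in 72.3% and wider in 79.6%. In run 2 the chromosome 20 medians were thus within 0.1 of those elsewhere on the log2 scale, while the shares of pairs with a taller or wider NTKO peak were higher on chromosome 20.

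The pairs divided by position. In the 6 windows the 220 pairs had a median log2 height ratio of 0.22 and a width ratio of 0.94. In the rest of the chromosome the 13 pairs had 0.12 and 0.02, and the NTKO peak was taller in 9 and wider in 7. Run 1 gave larger ratios, 1.02 for height and 2.84 for width over 33 pairs, each with the NTKO peak taller and wider. On the other chromosomes run 1 gave 0.84 and 1.42 over 357 pairs, with the NTKO peak taller in 97.5% and wider in 90.2%, so the run 1 width ratio was larger on chromosome 20. Between the runs of 1 line, the run 2 peak was taller by a median log2 ratio of 1.12 over 155 NTKO pairs and 1.90 over 36 TKO pairs. The difference between runs of the same line was thus larger than the run 2 difference between lines. Summits fell within 100 bp of each other in 129 of the 233 run 2 pairs (55.4%), and in 118 of the 220 pairs of the 6 windows.

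**Figure D4:**
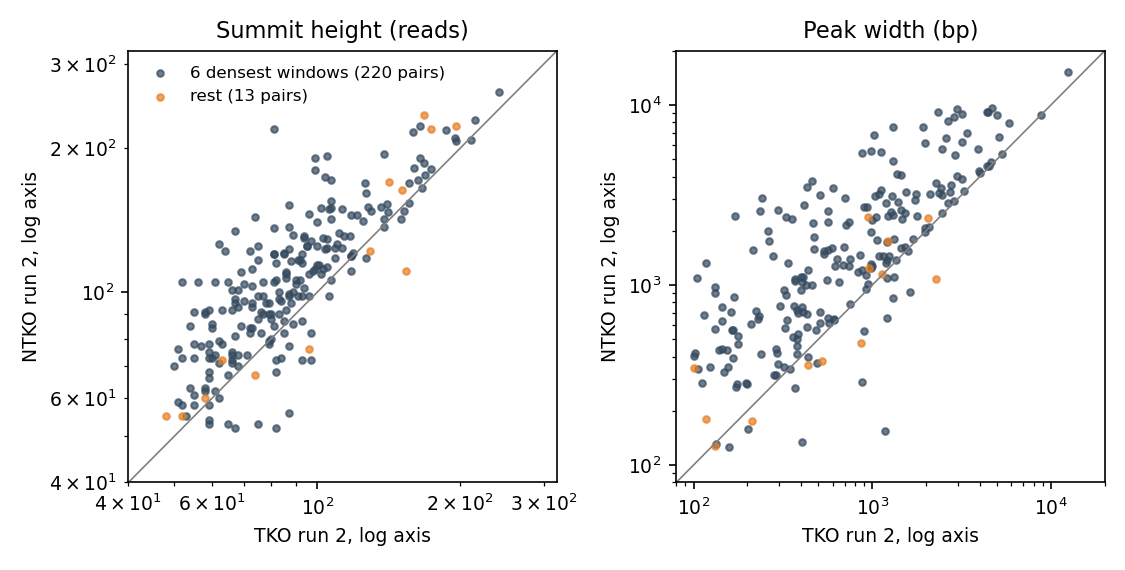
Summit height (left, reads, both axes logarithmic) and width (right, bp, both axes logarithmic) of the 233 paired run 2 peaks of chromosome 20, NTKO against TKO, with 1 point per pair and the line of equality in grey. Most points lie above the line, 197 for height and 209 for width; the 13 pairs outside the 6 densest windows are in orange.

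When the 4 lists were merged, chromosome 20 had 601 of 11858 regions, 518 of them in the 6 windows and 83 in the rest. Regions seen in NTKO run 2 alone were the most frequent, 308 (51.2% against 57.7% of all regions), followed by 109 in both run 2 lists (18.1% against 13.3%) and 90 in every list but TKO run 1 (15.0% against 8.57%). A further 32 were found in NTKO runs 1 and 2 without a TKO peak (5.32% against 4.70%). Of these, 24 lay in the 6 windows and 8 in the rest. Another 2 were found in TKO runs 1 and 2 without an NTKO peak (0.333% against 0.253%), and both lay outside the 6 windows. The last 2 shares were close to those over all regions. Finally, 32 had a peak in all 4 lists, 26 of them in the 6 windows and 6 in the rest. These 32 were 5.32% of the chromosome's regions, against 2.75% over the whole series. In both sets of 32 the 6 windows held a smaller share than of all 601 regions.

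The 32 regions with a peak in every list allow heights to be compared over samples. In NTKO cells their heights ran from 50 to 130 reads in run 1 (median 87.5) and from 118 to 262 in run 2 (median 184). In TKO cells they ran from 35 to 59 reads in run 1 (median 41) and from 75 to 242 in run 2 (median 161.5). The heights of TKO run 2 were above most of those of NTKO run 1, so the lines overlapped. Mean log2 heights were 6.96 ± 0.76 (SD, n = 2) for NTKO and 6.36 ± 1.33 (SD, n = 2) for TKO cells, a difference of 0.59 that was smaller than either SD. In limma's test over the 326 such regions of the genome, 0 were called at an adjusted p under 0.05 (background 0%), and 0 had an unadjusted p under 0.05. For the 32 regions of chromosome 20 the NTKO to TKO ratio had a median of 0.64 (log2), with a standard error of 0.84 per region, and the lowest adjusted p was 0.944. The value moved with each library left out. The median was -0.37 without TKO run 1 and 0.07 without NTKO run 2, and it was 1.15 without NTKO run 1 and 1.60 without TKO run 2. In the last case the median over the 326 regions was 1.30. Centring each sample on its own median, which takes out a shift common to all regions, gave -0.01 on chromosome 20 and -0.09 over the 326 regions.

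**Figure D5:**
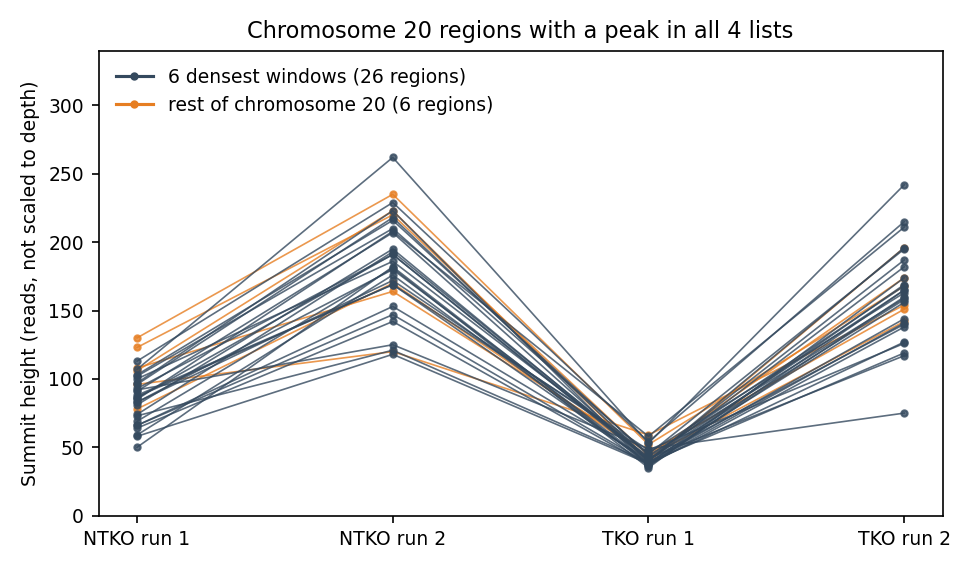
Summit height (vertical axis, reads, with no stated scaling to library size) in each of the 4 samples for the 32 chromosome 20 regions with a peak in all 4 lists, 1 joined set of points per region. Both run 1 samples lie below the run 2 sample of the same line, and TKO run 1 spans only 35 to 59 reads.

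In these regions NTKO was higher in both runs in 29 of 32, where 71.2% of the 326 regions of the genome were, and lower in both runs in 0 of 32, where 1.84% were. The median log2 ratio was 1.00 in run 1 and 0.12 in run 2, against 0.88 and 0.12 for the regions on other chromosomes. Run 1 set most of the difference. The lower NTKO height exceeded the higher TKO height in 1 of 32, where 12% of the 326 did, and the opposite order was met by 0 of 32, where 0.307% did. That 1 region, from 62202733 to 62204941, had heights of 92 and 125 reads in NTKO runs 1 and 2 and 49 and 75 in TKO runs 1 and 2. Its groups did not overlap, and its log2 ratio was 0.82 ± 0.84 (SE), with an adjusted p of 0.944 by limma.

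Named regions show the range of behaviour. The tallest NTKO run 2 peak of the chromosome lay outside the distal stretch, from 45956799 to 45958338, with 299 reads. NTKO run 1 had 241 reads there and TKO run 1 had 44, while TKO run 2 had no peak. It was the only merged region of the chromosome with a peak in every list but TKO run 2. The next tallest site outside the distal stretch, from 46564132 to 46566509, had 169 and 247 reads in NTKO runs 1 and 2, and no peak in TKO cells. The site from 44368867 to 44371253 was present in all lists, with 130 and 235 reads in NTKO runs 1 and 2 and 52 and 168 in TKO runs 1 and 2.

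The other tall peaks were shared. From 61144194 to 61150390 NTKO run 2 reached 262 reads and NTKO run 1 107, and TKO run 2 reached 242 reads, its tallest on the chromosome, and TKO run 1 53. The NTKO run 2 peak of 6197 bp was met by 4 TKO run 2 peaks. From 60602898 to 60605827 the heights were 113 and 229 reads in NTKO runs 1 and 2 and 54 and 215 in TKO runs 1 and 2. At these sites both run 2 heights exceeded both run 1 heights. The peak of TKO run 2 from 61517306 to 61526124 had 211 reads, against 208 in NTKO run 2, 85 in NTKO run 1 and 58 in TKO run 1. The TKO run 2 peak from 61348041 to 61352513 had 196 reads against 207 in NTKO run 2. That from 34144201 to 34145157 had 196 against 223. The tallest TKO run 1 peak, from 30635935 to 30636358, lay outside the distal stretch and had 59 reads. There TKO run 2 had 154 reads, more than NTKO run 2 with 120, and NTKO run 1 had 96. The next tallest of TKO run 1, from 61517410 to 61518303 and from 61521946 to 61524244, had 58 reads each. Both overlapped the TKO run 2 peak of 211 reads.

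The widest peaks were also common to both lines. NTKO run 2 had 1 peak of 15284 bp from 60552439 to 60567722, with a height of 172 reads, and TKO run 2 had 1 of 12461 bp from 60554016 to 60566476, with 163. The 15284 bp peak overlapped 4 TKO run 2 peaks, of which the 12461 bp peak was 1. NTKO run 1 had 5 and TKO run 1 had 6 separate peaks in the same place. The next widest of NTKO run 2 measured 9603 bp (60568331 to 60577933) and 9439 bp (61408302 to 61417740), each over 4 TKO run 2 peaks. The next widest of TKO run 2 measured 8819 bp (61517306 to 61526124) and 5797 bp (60462611 to 60468407), each overlapping 1 NTKO run 2 peak. The 9439 bp and 5797 bp peaks each met a single peak in either run 1 list.

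Regions found in both runs of NTKO cells and in no TKO list were led, after 46564132 to 46566509, by 62143533 to 62144573, with 80 reads in run 1 and 111 in run 2. Then came 60375959 to 60377885 with 79 and 126 reads, 30019837 to 30020343 with 71 and 179, and 45959535 to 45960276 with 65 and 135. The last of these lies next to the tallest NTKO peak, which had no TKO run 2 peak either. The 2 regions found in TKO runs 1 and 2 alone were 1194576 to 1195485, with 49 reads in run 1 and 90 in run 2, and 47762650 to 47763474, with 45 and 131. All 7 were chosen for their pattern across the lists, so their presence and absence is a description.

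Chromosome 20 held 9.35% and 5.50% of the NTKO lists (runs 1 and 2) and 8.14% and 7.31% of the TKO lists (runs 1 and 2). The mean share was 7.43% ± 2.73 (SD, n = 2) in NTKO and 7.72% ± 0.591 (SD, n = 2) in TKO cells, a difference of -0.297 percentage points, well inside the spread between runs. An exact two-sided permutation test gave p = 1, and with 2 samples against 2 the smallest p it allows is 0.333. Leaving out NTKO run 2 turned the difference to 1.63 and leaving out TKO run 1 to 0.121 percentage points. By covered length the shares were 10.4%, 8.56%, 6.85% and 11.2%, which also turned the direction, to 0.446 percentage points. A difference between the lines in the share of EZH2 peaks on chromosome 20 was not detectable.

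Set beside the other chromosomes, the peaks of chromosome 20 were concentrated and wide. The 23 chromosomes with at least 20 TKO run 2 peaks were ranked. This left out chromosome Y, whose 6 densest windows held 100% of its peaks in both run 2 lists. The 6 densest windows of each ranked chromosome, chosen by the same rule, held between 26.2% and 93.2% of its NTKO run 2 peaks. Chromosome 20, at 88.5%, stood after chromosome 21. For TKO run 2 the range was 23.9% to 92.1%, with chromosome 20 the highest. Chromosome 11, with similar numbers of peaks, had 67.0% and 74.1%, and chromosomes 16 and 9 had 61.1% and 76.0%, and 61.8% and 61.2%. A short chromosome has fewer windows, which raises this share, and its part was not tested. The median width of 522 bp in NTKO run 2 and 508 bp in TKO run 2 was the highest of the 23, with next values of 433 and 425 bp. Median heights were 73 reads in NTKO run 2 and 79 in TKO run 2, each exceeded by 1 other chromosome. These orders are descriptions of the lists, with no test.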

How the data were processed

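EZH2 ChIP-seq of 2 samples each of NTKO and TKO cells was analysed from 4 peak lists, grouped by the sample titles. As the study's methods and the labels describe, reads (CASAVA 1.8) were aligned to hg18 with BWA, reads at identical positions were removed, and ChIPseeqer was run on each sample with its matching input (2-fold, −log10 p of at least 15). Samples were not pooled. The signal columns deposited by the authors are the mean level and summit height of reads, with no scaling to library size stated. The authors deposited a log10 p as the score column, and their deposited percent column, the summit's place in the peak, was not used for any result. Depth is unknown from the lists.

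Starts were printed counted from 1. The build was checked: 55 peaks of NTKO run 2 end past a GRCh37 chromosome, so nothing was converted. Peaks were counted by midpoint in 0.5 Mb windows, joined within 1 kb, merged across lists and paired by largest overlap. Log2 heights of 326 regions were compared by limma (version 3.58.1, R 4.3.3), with Benjamini-Hochberg adjustment, no block and no centring, and the share of each list by an exact permutation test. P-values measure only the spread between these samples. Run 2 was the main setting for overlaps, as in the study. Other steps used matplotlib 3.10.9, scipy 1.17.1, pandas 2.3.3, numpy 2.4.6 and Python 3.11.15, and scripts were tested on simulated data. Named were the 6 densest windows, every window with more TKO than NTKO run 2 peaks, the 5 highest and 3 widest peaks of each run 2 list and the 3 highest of each run 1 list, and the 5 highest regions of each pattern found in 1 line only. Other core regions are given by range. The members and lists were chosen with earlier results of these data known.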

Additional observations from a re-analysis of the deposited data

How the results depend on the processing

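Of 62 alternatives to 8 results, 45 were labelled as keeping the value, 13 as moving it and 4 as turning its direction. The causes were not tested. For numbers of regions or windows the limit was 1.5 times. For the difference in the share of a list only its sign was judged, so -2.22 counted as kept. For the other results the limit was the SD of the run 1 and run 2 values. By that rule run 1 could not count as kept, and an average of the runs fell within the limit by construction. The limit was wide where runs differed, so a width ratio of 0.02 without the 6 windows counted as kept. These labels are no measure of robustness. The ratio of NTKO to TKO peaks on chromosome 20, 1.44, was 5.25 in run 1, 4.39 for peaks found in both runs and 0.965 with equal numbers of peaks per list. The share of TKO peaks lacking an NTKO partner, 6.20%, was 5.66% in run 1, 12.8% with peaks within 1 kb merged, 71.0% when 50% of both peaks had to overlap and 10.4% with equal numbers. It was 2.16% in the 6 densest windows and 53.1% without them, alternatives chosen after seeing the data. The share of NTKO peaks lacking a TKO partner, 58.8%, was 88.1% in run 1 and 79.9% with the 50% overlap. It was 51.9% for peaks with a −log10 p of at least 20 and 43.7% with equal numbers. The median log2 ratios of height and width, 0.22 and 0.90, were 1.02 and 2.84 in run 1. They were 0.15 and 0.34 with the 50% overlap, and 0.40 and 1.59 over all overlapping pairs. The share of a list on chromosome 20 differed by -0.297 percentage points, by 0.446 by covered length, and by -2.22 to 1.63 when each replicate was left out, with 0.121 without TKO run 1.

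Run numbers are shared between lines with no label of a common batch. Deviations of same-numbered samples correlated at 0.759 over regions, with only 2 pairs. With a replicate block by run, limma called 0 of 326 regions (77 at an unadjusted p under 0.05, 6 of them on chromosome 20). With centring and the replicate block it called 47, of which 8 were higher and 39 lower in NTKO cells and 0 lay on chromosome 20. Averages of the 2 runs, with no block fitted, were 2.75 for the ratio of peak numbers (geometric mean). For the shares without a partner the plain means were 5.93% (TKO) and 73.4% (NTKO).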
